A study of Mus musculus with 9 samples.

Results

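Fc receptors bind the constant part of antibodies. The 6 genes described here are Fcer1g, Fcgr1, Fcgr2b, Fcgr3, Fcgr4 and Fcgrt. They encode IgG receptors of mouse myeloid cells and the signalling chain shared by the products of Fcgr1, Fcgr3 and Fcgr4. They were taken by symbol from the deposited table, where all 6 of 14862 genes were found. Total RNA was sequenced from splenic mcDC, cDC1 and cDC2 (3 libraries each) of C57Bl/6 mice, whose age was 8 to 12 weeks. cDC1 and cDC2 are the type 1 and type 2 conventional dendritic cells. The labels leave mcDC unexpanded; in the field it stands for merocytic dendritic cells. No sort markers are known from the sources used here. No treatment or altered allele was given for any subset, and whether libraries came from separate or pooled animals was not stated, so the spread behind each p-value may be technical.

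The activating IgG receptors (the products of Fcgr1, Fcgr3 and Fcgr4) bind the antibody themselves but signal through the gamma chain encoded by Fcer1g, whose cytoplasmic tail carries an ITAM, a pair of tyrosines that recruits the kinase Syk when phosphorylated. The receptor encoded by Fcgr2b binds the same antibodies and carries the opposite element, an ITIM, which recruits phosphatases that stop the signal. Fcgrt encodes the heavy chain of FcRn, a receptor built like an MHC class I molecule on beta-2 microglobulin, which binds IgG inside acidic endosomes and returns it to the surface or passes immune complexes on for presentation. Dendritic cells use these receptors to take up antibody-coated antigen, and the balance of activating and inhibitory receptors sets how readily immune complexes mature them.

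The values are RPKM, reads per unit of gene length and of library depth, so levels of different genes can be compared per length. Recovered read totals were 5.14 to 8.22 M in mcDC, 9.68 to 11.01 M in cDC1 and 9.19 to 12.43 M in cDC2, and mcDC replicate 3, the shallowest library, had 12.35% of genes at 0. The cDC1 and cDC2 labels held against most defining markers: the cDC1 genes Xcr1 (10.3 to 19.4 RPKM in mcDC, 131 to 174 in cDC1 and 1.95 to 2.81 in cDC2) and Clec9a were highest in cDC1, while the cDC2 gene Sirpa was at 145 to 213 RPKM in mcDC, 11.5 to 43.0 in cDC1 and 267 to 278 in cDC2. Of 7 cDC2 markers, 5 were called lower in cDC1 than in cDC2, where 10.7% of all genes were. The marker Clec12a was called higher in cDC1 (mean 77.2 against 46.9 RPKM), as were 8.85% of all genes. No marker list was set for mcDC itself. Summed RPKM of 11 red pulp macrophage markers was 428 to 829 in mcDC, 118 to 163 in cDC1 and 192 to 227 in cDC2. Adgre1 was the only marker of that list with a higher mean in cDC2 than in mcDC. It was at 45.1 to 64.4 RPKM in mcDC, 1.76 to 6.97 in cDC1 and 87.6 to 95.7 in cDC2. The sum of 9 neutrophil markers was 6.43 to 43.9 in mcDC, 12.97 to 46.6 in cDC1 and 130 to 1570 in cDC2. In sorted populations fewer cells of a type and less RNA per cell cannot be told apart.

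Fcer1g was the most abundant of the 6 genes, with a mean RPKM above 98.8% of all genes in the table, and its level differed between the subsets. It was at 288, 319 and 336 RPKM in mcDC, 113, 47.8 and 54.1 in cDC1, and 465, 464 and 623 in cDC2. The 3 subsets did not overlap in any pair, with cDC2 highest, mcDC between and cDC1 lowest. The log2 fold change of RPKM + 1 was 2.22 ± 0.28 for mcDC over cDC1 (SE, n = 3 libraries each, limma adjusted p = 0.00081) and -2.93 ± 0.28 for cDC1 over cDC2 (adjusted p = 9.3e-05). For mcDC over cDC2 it was -0.71 ± 0.28 with a 95% interval of -1.34 to -0.07, and it did not pass over all genes (limma adjusted p = 0.24, and 0.047 without cDC1 replicate 1). The first cDC1 library, which stood highest for Fcer1g in that subset, also had the highest summed RPKM of 7 cDC2 markers, 193 against 104 and 114 in cDC1 replicates 2 and 3. Its sum of 6 plasmacytoid dendritic cell markers was likewise 185 RPKM against 103 and 102, and the part of either list in its Fcer1g level was not tested.

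**Figure D1:**
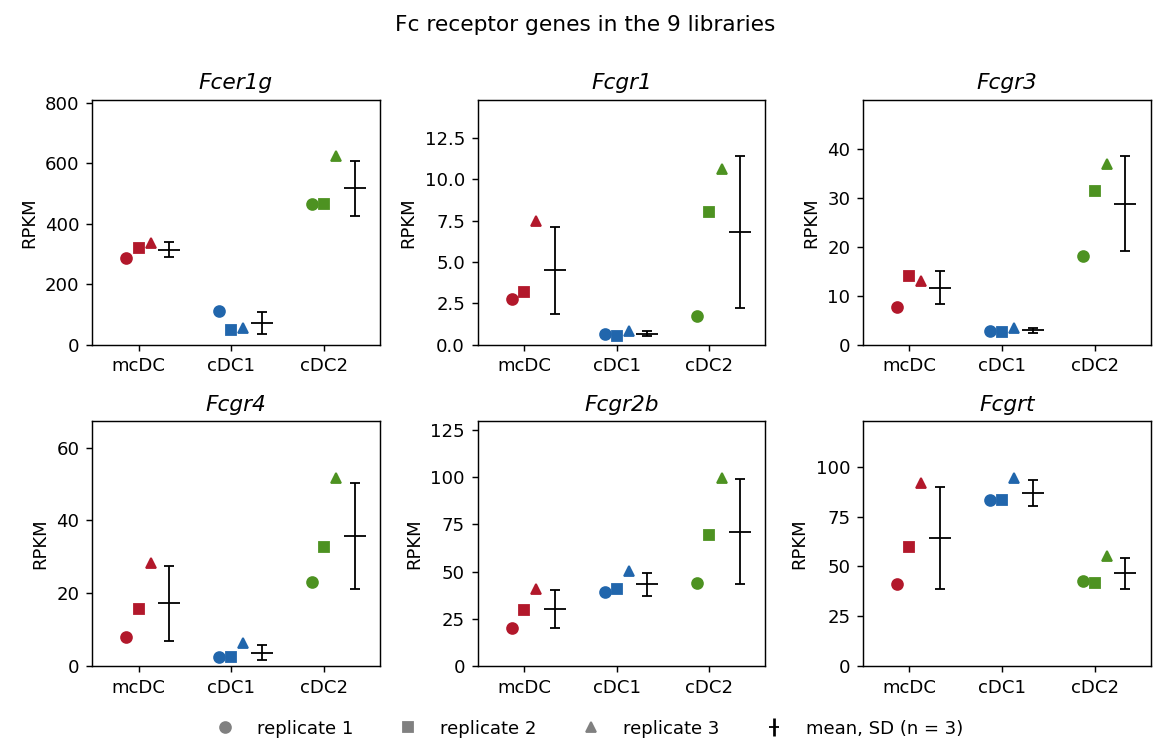
RPKM of the 6 genes in each library, by subset (mcDC, cDC1, cDC2), with the mean and SD of 3 libraries beside the points. Each vertical axis starts at 0 and has its own scale. Fcer1g, Fcgr3 and Fcgr4 are lowest in all 3 cDC1 libraries, while for Fcgrt the cDC1 libraries lie at 83.2 to 94.6 RPKM, above all cDC2 libraries.

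The ligand-binding activating receptors stood in the same order of means as Fcer1g, at far lower levels. Fcgr3, which encodes the low-affinity IgG receptor III, was at 7.72, 14.1 and 13.1 RPKM in mcDC, 2.68, 2.61 and 3.43 in cDC1, and 18.2, 31.4 and 36.8 in cDC2, and no 2 subsets overlapped. Its log2 fold change was 1.66 ± 0.28 for mcDC over cDC1 (SE, limma adjusted p = 0.0040), -1.22 ± 0.28 for mcDC over cDC2 (adjusted p = 0.048) and -2.88 ± 0.28 for cDC1 over cDC2 (adjusted p = 1e-04). The call between mcDC and cDC2 was narrow: it was lost in 12 of 19 other settings, among them leaving out any mcDC library (limma adjusted p = 0.062, 0.070 and 0.051 without replicates 1, 2 and 3), any cDC1 library (0.071, 0.084 and 0.079) or cDC2 replicate 2 or 3 (0.21 and 0.19). The other Fcgr3 differences held in all 19.

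Fcgr4, which encodes the mouse receptor IV for IgG, was at 7.96, 15.5 and 28.3 RPKM in mcDC, 2.47, 2.39 and 6.19 in cDC1, and 23.0, 32.7 and 51.7 in cDC2. All mcDC and all cDC2 libraries lay above all cDC1 libraries, and the highest mcDC library lay above the lowest cDC2 library. The log2 fold change was 1.89 ± 0.46 for mcDC over cDC1 (SE, limma adjusted p = 0.022) and -2.99 ± 0.46 for cDC1 over cDC2 (adjusted p = 0.0015), while mcDC over cDC2, at -1.10 with a 95% interval of -2.14 to -0.06, did not pass (adjusted p = 0.27). The call between mcDC and cDC1 was lost without mcDC replicate 2 (limma adjusted p = 0.061), without cDC1 replicate 1 (0.073) or 2 (0.094), and with voom on recovered reads (0.090).

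Fcgr1, which encodes the high-affinity receptor I (CD64) and is widely used to tell macrophages and monocyte-derived cells from conventional dendritic cells, was the least expressed of the 6. It was at 2.77, 3.19 and 7.50 RPKM in mcDC, 0.631, 0.526 and 0.836 in cDC1, and 1.72, 8.01 and 10.6 in cDC2, which rests on 46 to 100 reads per mcDC library, 15 to 21 per cDC1 library and 41 to 343 per cDC2 library. All cDC1 libraries lay below all others, and the 2 other subsets overlapped. cDC1 was lower than cDC2 (log2 fold change -1.99 ± 0.51, SE, limma adjusted p = 0.022), a call lost without any 1 cDC1 library (0.058, 0.077 and 0.059 without replicates 1, 2 and 3), without cDC2 replicate 2 (0.091) or 3 (0.085), and with voom (0.072). mcDC over cDC1 was 1.63 ± 0.51 and did not pass (limma adjusted p = 0.060), although it did without cDC2 replicate 1 (0.011), with these 2 subsets fitted alone (0.027) and with a pseudocount of 0.1 RPKM (0.032). For mcDC over cDC2 the difference was -0.36 with a 95% interval of -1.51 to 0.78 (limma adjusted p = 0.76), and without cDC2 replicate 3 it was 0.05.

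Within 2 subsets the receptor levels stood beside differences in markers of other cells. cDC2 replicate 1 was the lowest cDC2 library for Fcgr1, Fcgr3 and Fcgr4, and also for Fcgr2b. Its neutrophil marker sum was 130 RPKM against 908 and 1570 in cDC2 replicates 2 and 3. Its sum of 9 monocyte markers was 1522 RPKM against 1913 and 2282. The largest part of that sum was Lyz2, at 698 RPKM against 1176 and 1462. Nr4a1 ran the other way, at 471 RPKM against 231 and 228, and every other marker of that list was lowest in replicate 1. In mcDC, replicate 3 was highest for Fcgr1 and Fcgr4, and also for Fcgr2b and Fcgrt described below, with a macrophage marker sum of 829 RPKM against 428 and 533 in replicates 1 and 2, and an NK cell marker sum of 158 RPKM against 65.8 and 105. The sum of cDC1 markers was likewise 631 RPKM in replicate 3 against 291 and 544, and the plasmacytoid dendritic cell and neutrophil marker sums were also highest there. The largest part of the cDC1 sum was Irf8, at 493 RPKM in replicate 3 against 206 and 404. Clec9a and Tlr3 were highest in replicate 2, and the other cDC1 markers in replicate 3. Bst2 was the largest part of the plasmacytoid sum, at 169 RPKM against 76.5 and 102. Tcf4, Ccr9 and Spib of that list were not highest in replicate 3. Of the macrophage list, Adgre1 and Cd163 were lowest in replicate 3, and Mertk was highest in replicate 2. The part of these markers in the receptor levels was not tested.

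The promoters of the activating receptors and of the inhibitory one are shown because these genes differed together or apart between the subsets. Each window runs from 250 bases before to 50 after the transcription start, in RefSeq's GRCm38.p6 sequence, which had an entry for all 6 genes. Fcgr1 is at chr3:96293920-96294219 (minus strand), Fcgr3 at chr1:171059354-171059653 (minus strand), Fcgr4 at chr1:171018676-171018975 (plus strand) and Fcgr2b at chr1:170976022-170976321 (minus strand), so that 3 of these lie in 1 cluster on chromosome 1, the chromosome that also carries Fcer1g. Capitals mark every match, on either strand, to the PU box GAGGAA (bound by PU.1), the Ets and IRF composite element (GGAA, 2 bases of any kind, then GAAA), the interferon gamma activated site TTCNNNGAA or the interferon stimulated element (GAAA, 2 bases of any kind, then GAAA).
Fcgr1: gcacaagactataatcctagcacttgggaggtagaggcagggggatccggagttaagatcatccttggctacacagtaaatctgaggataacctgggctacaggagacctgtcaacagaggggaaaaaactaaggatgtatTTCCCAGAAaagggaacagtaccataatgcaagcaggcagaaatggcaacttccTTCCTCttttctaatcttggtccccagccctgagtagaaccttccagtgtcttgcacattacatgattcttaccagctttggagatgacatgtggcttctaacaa
Fcgr3: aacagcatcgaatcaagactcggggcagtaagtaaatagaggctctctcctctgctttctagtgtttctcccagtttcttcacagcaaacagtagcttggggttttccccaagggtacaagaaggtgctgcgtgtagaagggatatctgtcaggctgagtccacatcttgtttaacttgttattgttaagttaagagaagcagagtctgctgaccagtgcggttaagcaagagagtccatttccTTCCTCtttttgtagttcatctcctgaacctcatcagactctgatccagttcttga
Fcgr4: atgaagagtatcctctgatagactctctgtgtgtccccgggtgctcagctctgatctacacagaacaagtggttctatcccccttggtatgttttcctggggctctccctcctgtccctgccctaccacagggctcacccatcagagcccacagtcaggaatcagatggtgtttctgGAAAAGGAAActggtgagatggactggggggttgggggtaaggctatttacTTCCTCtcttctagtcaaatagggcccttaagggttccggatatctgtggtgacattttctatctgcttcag
Fcgr2b: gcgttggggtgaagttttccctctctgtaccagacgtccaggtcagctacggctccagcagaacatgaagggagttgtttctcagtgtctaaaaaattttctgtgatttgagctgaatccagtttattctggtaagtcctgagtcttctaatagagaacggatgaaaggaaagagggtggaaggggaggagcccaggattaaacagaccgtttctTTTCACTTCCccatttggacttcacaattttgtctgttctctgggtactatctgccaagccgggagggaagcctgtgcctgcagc
Fcgr1, Fcgr3 and Fcgr4 each held 1 PU box, read on the opposite strand as TTCCTC, starting 55, 6 and 22 bases before the annotated start. The windows of Fcgr2b, Fcer1g and Fcgrt held none, and 28.3% of the 32851 promoter windows in the table held at least 1. Fcgr2b held 1 composite element, starting 35 bases before its start, which 2.71% of windows hold. Fcgr1 held 1 interferon gamma activated site (8.30% of windows) and Fcgr4 held 1 interferon stimulated element (3.44%). No matches overlapped one another, and a match to these letters is not evidence of binding.

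Fcgr2b, the inhibitory receptor, did not follow the activating receptors in the order of its subset means, although cDC2 was again highest. It was at 20.3, 29.7 and 40.6 RPKM in mcDC, 39.1, 40.8 and 50.3 in cDC1, and 44.0, 69.5 and 99.7 in cDC2. cDC1, the lowest subset for every activating receptor, lay between the 2 others in its mean, and the mcDC libraries lay below all cDC2 libraries but overlapped cDC1. The log2 fold change was -0.55 ± 0.31 for mcDC over cDC1 (95% interval -1.24 to 0.14, limma adjusted p = 0.27), -1.19 ± 0.31 for mcDC over cDC2 (-1.87 to -0.50, adjusted p = 0.074) and -0.63 ± 0.31 for cDC1 over cDC2 (-1.32 to 0.06, adjusted p = 0.21), so no pair passed. The mcDC and cDC2 difference passed without mcDC replicate 3 (limma adjusted p = 0.036), without cDC2 replicate 1 (0.033) and with voom (0.045).

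Fcgr2b and Fcgr3 have near-identical stretches in their ligand-binding part, so reads could have been split between them. Distinct 50-base windows were pooled over all GENCODE M21 transcripts of a gene, 5685 for Fcgr2b and 1733 for Fcgr3. Of these, 166 were common to the 2 genes, which is 2.92% of those of Fcgr2b and 9.58% of those of Fcgr3. In all, 249 windows of Fcgr2b (4.38%) were found in another gene. The gene lengths behind the RPKM were shorter, 1548 and 1355 bases, so the shared part of the counted sequence may be larger. Windows of Fcer1g, Fcgr1, Fcgr4 and Fcgrt were in no other gene. How the authors assigned shared reads was not given in the sources used here.

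The ratio of activating to inhibitory transcripts, the summed RPKM of Fcgr1, Fcgr3 and Fcgr4 over the RPKM of Fcgr2b, set cDC1 apart from both other subsets. It was 0.911, 1.10 and 1.20 in mcDC, 0.148, 0.136 and 0.208 in cDC1, and 0.973, 1.04 and 0.994 in cDC2. Activating and inhibitory transcripts were thus near parity per length in mcDC and cDC2, while in cDC1 Fcgr2b exceeded the activating sum in every library. The means were 1.07 ± 0.149, 0.164 ± 0.0386 and 1.002 ± 0.0327 in mcDC, cDC1 and cDC2 (SD, n = 3 each), given as a description with no test. Since both terms come from 1 library, scaling between libraries leaves the ratio as it is. Within cDC2 the activating sum ranged from 42.8 to 99.2 RPKM, while the ratio ranged from 0.973 to 1.04.

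Single receptors showed the same separation. Fcgr3 over Fcgr2b was 0.322 to 0.473 in mcDC, 0.0641 to 0.0687 in cDC1 and 0.369 to 0.452 in cDC2, so mcDC and cDC2 overlapped and cDC1 lay below both. Fcgr4 over Fcgr2b was 0.393 to 0.697 in mcDC, 0.0587 to 0.123 in cDC1 and 0.470 to 0.522 in cDC2. Per length, Fcer1g transcripts exceeded the summed transcripts of Fcgr1, Fcgr3 and Fcgr4 in all 9 libraries. Fcer1g over that sum was 15.6, 9.73 and 6.87 in mcDC, 19.5, 8.64 and 5.17 in cDC1, and 10.9, 6.43 and 6.28 in cDC2. The subsets overlapped in this ratio, and replicate 1 was the highest library of each. The gamma chain also serves other receptors, which are counted below.

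**Figure D2:**
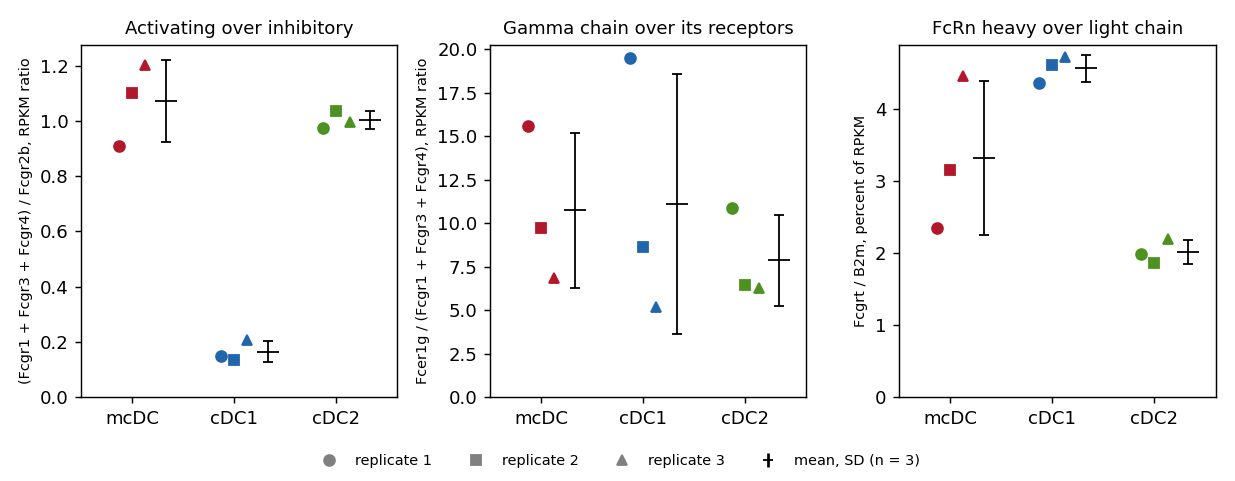
Ratios of RPKM within each library for mcDC, cDC1 and cDC2, with the mean and SD of 3 libraries beside the points: activating receptors over Fcgr2b, Fcer1g over the activating receptors, and Fcgrt as a percent of B2m. In the left panel the mcDC libraries lie at 0.911 to 1.20 and the cDC2 libraries at 0.973 to 1.04, against 0.136 to 0.208 in cDC1.

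Fcgrt ran the other way. It was at 41.1, 59.8 and 92.0 RPKM in mcDC, 83.3, 83.2 and 94.6 in cDC1, and 42.5, 41.8 and 55.4 in cDC2. All cDC1 libraries lay above all cDC2 libraries, and the mcDC libraries ran from below the lowest cDC2 library to above 2 of the 3 cDC1 libraries. Their macrophage marker sums (428, 533 and 829 RPKM) had the same order. So had their sums of cDC1 markers (291, 544 and 631 RPKM), of NK cell markers (65.8, 105 and 158) and of plasmacytoid dendritic cell and neutrophil markers. The largest part of the cDC1 sum was Irf8, at 206, 404 and 493 RPKM, while Clec9a and Tlr3 were highest in replicate 2. The largest part of the plasmacytoid sum was Bst2, at 76.5, 102 and 169 RPKM. Of that list only Ly6d also had this order. Of the macrophage list, Adgre1 ran opposite, at 64.4, 46.1 and 45.1 RPKM, and Cd163 and Mertk were highest in replicate 2. The cDC2 and B cell marker sums of the mcDC libraries ran in the opposite order. The part of any of these markers in the Fcgrt level was not tested. cDC1 was higher than cDC2 (0.90 ± 0.25 on the log2 scale, limma adjusted p = 0.031), a call lost without cDC1 replicate 1, 2 or 3 (0.069, 0.084 and 0.11), without cDC2 replicate 1 or 2 (0.10 and 0.12) or without mcDC replicate 2 (0.0504). mcDC over cDC1 was -0.50 (95% interval -1.06 to 0.06, limma adjusted p = 0.22, and -0.80 with 0.014 without mcDC replicate 3) and mcDC over cDC2 was 0.39 (-0.17 to 0.95, adjusted p = 0.47).

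Its partner B2m, the light chain also used by MHC class I, was far more abundant, at 1749, 1895 and 2058 RPKM in mcDC, 1909, 1801 and 2004 in cDC1, and 2144, 2251 and 2529 in cDC2, and did not pass in any comparison (limma adjusted p = 0.99, 0.45 and 0.34). Fcgrt was 2.35 to 4.47% of B2m in mcDC, 4.37 to 4.72% in cDC1 and 1.86 to 2.19% in cDC2. In this share mcDC lay above every cDC2 library and overlapped cDC1.

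Counted over the 6 genes, 3 were called higher in mcDC than in cDC1 (Fcer1g, Fcgr3 and Fcgr4) and 0 lower, where 15.4% of the 11971 genes tested were called, 9.53% higher and 5.88% lower. Between mcDC and cDC2, 1 of 6 (Fcgr3) was called lower and 0 higher, where 3.66% of all genes were called, 2.06% higher and 1.6% lower. Between cDC1 and cDC2, 4 of 6 were called lower in cDC1 (Fcer1g, Fcgr1, Fcgr3 and Fcgr4) and 1 higher (Fcgrt), where 19.6% of all genes were called, 8.85% higher and 10.7% lower. The libraries did not overlap at 4 of 6 genes for mcDC and cDC1 (30.5% of all genes), at 3 for mcDC and cDC2 (21.6%) and at 5 for cDC1 and cDC2 (46.1%). The median log2 fold change of the 6 was 1.64, -0.90 and -2.43 in these comparisons, beside 0.09, 0.06 and -0.02 over all genes tested. The comparisons share libraries, so they are not independent of each other.

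Median-of-ratios scaling shifted all mcDC over cDC1 log2 fold changes by -0.12 at the median, and gave 837 genes higher and 963 lower in mcDC (46.5% higher), where the values as deposited gave 1141 and 704 (61.8%). For mcDC against cDC2 it gave 199 higher and 266 lower (42.8%), where the values as deposited gave 247 and 191 (56.4%). The 6 genes had the same calls under it in all 3 comparisons.

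**Figure D3:**
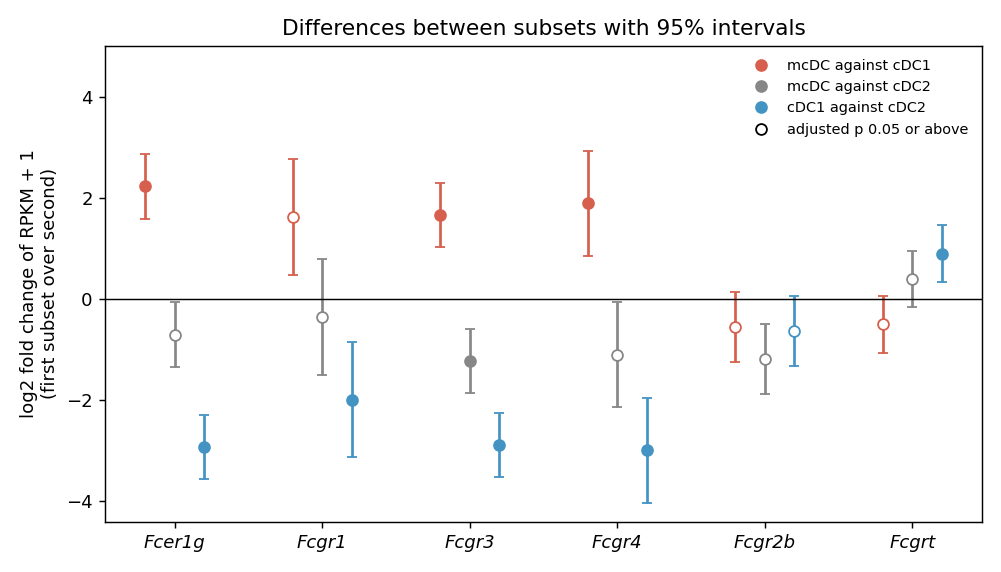
Log2 fold change of RPKM + 1 for the 6 genes in mcDC against cDC1, mcDC against cDC2 and cDC1 against cDC2, with 95% intervals from limma; filled points passed adjusted p 0.05 over all genes. The mcDC over cDC1 values lie above 0 for Fcer1g and the 3 activating receptors and below 0 for Fcgr2b and Fcgrt, whose intervals cross 0.

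The genes whose pattern over the 9 libraries was most like that of each receptor were ranked by Pearson's r of log2(RPKM + 1) among 7916 or 7917 genes with a mean of at least 5 RPKM, as a description across libraries that share subset, depth and sort. For Fcer1g these were Casp1, the inflammatory caspase (r = 0.996), Rnf130 and S100a4. For Fcgr3 they were Arf2 (r = 0.990), Spi1, which encodes PU.1 and was at a mean of 295 RPKM in mcDC, 219 in cDC1 and 343 in cDC2, and the lysosomal protein gene Cd68. For Fcgr4 they were the interferon-inducible genes Ifi27l2a (r = 0.998) and Ifitm2, and Tyrobp. Fcgr1 was most like Picalm (r = 0.971), Ptpn1 and Sp100. Fcgr2b was most like Aldh2 (r = 0.969), Dpep2 and the granulocyte gene S100a9, and Fcgrt most like Sdf2l1 (r = 0.979), Atpif1 and Sod1.

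Tyrobp encodes DAP12, the other ITAM adaptor of myeloid cells. It was at 540, 689 and 1012 RPKM in mcDC, 391, 340 and 457 in cDC1, and 846, 1030 and 1266 in cDC2, above Fcer1g in every library. mcDC was higher than cDC1 (log2 fold change 0.88 ± 0.25, SE, limma adjusted p = 0.040), a call lost in 10 of 19 settings, among them leaving out mcDC replicate 2 or 3 (0.081 and 0.058), any cDC1 library (0.096, 0.16 and 0.071) or cDC2 replicate 2 (0.070). cDC1 was lower than cDC2 in all settings (-1.39 ± 0.25, limma adjusted p = 0.0032), and mcDC over cDC2 was -0.52 (adjusted p = 0.33).

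Of 13 other genes for Fc receptors and their relatives, 7 passed the filter on low values. The IgE receptor genes Fcer1a and Ms4a2, whose products form the high-affinity receptor together with the gamma chain, were at most 0.973 RPKM in any library and were not tested. Between mcDC and cDC1, 1 was higher and 2 lower in mcDC (15.4% of all genes were called), and without mcDC replicate 3 these were 3 and 2. Between mcDC and cDC2, 2 were higher in mcDC (3.66% of all genes were called), and 1 under median-of-ratios scaling, quantile normalization or voom. Between cDC1 and cDC2, 2 were higher and 1 lower in cDC1 (19.6% of all genes were called). The median log2 fold change of the 7 was -0.12, 0.19 and -0.04 for mcDC over cDC1, mcDC over cDC2 and cDC1 over cDC2. Fcrla, which encodes an intracellular Fc receptor relative best known from B cells and lies beside Fcgr2b in the chromosome 1 cluster, was at 2.51, 6.19 and 2.87 RPKM in mcDC, 24.6, 25.9 and 27.9 in cDC1, and 0.802, 0.598 and 1.54 in cDC2. It was thus highest in the subset with the lowest activating receptors (log2 fold change -2.56 ± 0.28 for mcDC over cDC1 with limma adjusted p = 0.00038, and 3.80 ± 0.28 for cDC1 over cDC2 with 2.1e-05). Its call between mcDC and cDC2 (1.25 ± 0.28, adjusted p = 0.045) was lost in 12 of 19 settings, among them leaving out any library except mcDC replicates 1 and 3 (limma adjusted p = 0.064 to 0.19).

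Fcrlb, the neighbouring relative, was at a mean of 0.770 RPKM in mcDC, 7.49 in cDC1 and 0.648 in cDC2, and was likewise highest in cDC1. Fcrl5 was at 3.90, 2.91 and 3.04 RPKM in mcDC, 0.210, 0.368 and 0.568 in cDC1, and 0.567, 0.679 and 0.512 in cDC2, and was higher in mcDC than in both others (1.63 ± 0.20 with limma adjusted p = 0.00057 over cDC1, and 1.43 ± 0.20 with 0.0053 over cDC2). Fcrl5 is also a B cell gene. The sum of 8 B cell markers was 57.6 to 99.8 RPKM in mcDC, 30.5 to 38.6 in cDC1 and 84.4 to 97.8 in cDC2. Most of that contrast lay in Cd22, at 34.2 to 49.7 RPKM in mcDC, 5.16 to 5.87 in cDC1 and 58.0 to 68.6 in cDC2. Without it the other 7 markers summed to 50.1, 40.1 and 23.4 RPKM in mcDC, 32.7, 27.1 and 25.4 in cDC1, and 33.8, 26.0 and 26.4 in cDC2, so the subsets overlapped, while Ms4a1 was highest in cDC1, at 1.42 to 8.44 RPKM in mcDC, 12.7 to 15.0 in cDC1 and 1.80 to 5.23 in cDC2. The part of these markers in the Fcrl5 level was not tested. Fcrl1 was lower in cDC1 than in cDC2 (mean 11.4 against 29.9 RPKM, limma adjusted p = 0.018), a call lost without cDC1 replicate 2 or 3 (0.076 and 0.073) or cDC2 replicate 1 or 2 (0.073 and 0.062), and Trim21, a cytosolic antibody receptor, did not pass in any comparison (16.2, 18.1 and 18.6 RPKM in mcDC, cDC1 and cDC2).

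Of 16 listed receptors that signal through the gamma chain or were grouped with it, 10 were in the table and all 10 were tested. In mcDC 3 were higher and 0 lower than in cDC1, where 15.4% of all genes were called, and without mcDC replicate 3 these were 5 and 0. In mcDC 1 was higher and 3 lower than in cDC2, where 3.66% of all genes were called, but 1 and 0 with voom and 1 and 2 without mcDC replicate 3. In cDC1 0 were higher and 6 lower than in cDC2, where 19.6% of all genes were called. Their median log2 fold change was 0.70, -0.39 and -1.41 in these 3 comparisons, beside 0.09, 0.06 and -0.02 over all genes. Ncr1, which encodes the NK cell receptor NKp46, was at 21.4, 32.2 and 22.3 RPKM in mcDC, 4.10, 5.64 and 4.79 in cDC1, and 2.67, 3.26 and 4.78 in cDC2, and was higher in mcDC than in both others (2.15 ± 0.22 with limma adjusted p = 0.00026, and 2.53 ± 0.22 with 0.00077). Summed RPKM of 6 NK cell markers, Ncr1 among them, was 65.8, 105 and 158 in mcDC, 36.3 to 54.9 in cDC1 and 25.0 to 42.6 in cDC2. Gzma was the largest part of that sum, at 22.5, 40.5 and 76.1 RPKM in mcDC. Ncr1 was highest in mcDC replicate 2 and so did not follow the sum within mcDC. The part of these markers in the Ncr1 level was not tested.

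The paired immunoglobulin-like receptor gene Pira6 and Clec4n, which encodes the fungal receptor Dectin-2, were also higher in mcDC than in cDC1, by 1.76 ± 0.22 and 1.73 ± 0.32 on the log2 scale (limma adjusted p = 0.00073 and 0.0055). Pira6 and Pira2 belong to a family of near-identical genes, so their levels are uncertain. Lilra5 was lower in cDC1 than in cDC2 (mean 0.155 against 6.87 RPKM, limma adjusted p = 0.0024). Its call between mcDC and cDC2 (mean 1.27 against 6.87 RPKM, limma adjusted p = 0.048) was lost in 13 of 19 settings, among them leaving out any library except mcDC replicate 2 (0.061 to 0.19). Clec4e, which encodes the receptor Mincle, was listed at 0 in all mcDC and all cDC1 libraries and at 0.820, 3.44 and 4.63 RPKM in cDC2. Its cDC2 level was lowest in the library with the lowest neutrophil marker sum.

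All 34 genes listed for ITAM signalling were tested. In mcDC 9 were higher and 3 lower than in cDC1, where 15.4% of all genes were called. Under median-of-ratios scaling these were 6 and 4, under quantile normalization 5 and 4, and without mcDC replicate 3 they were 15 and 3. In mcDC 0 were higher and 5 lower than in cDC2, where 3.66% of all genes were called, and the 5 were 3 under quantile normalization or without mcDC replicate 3. In cDC1 5 were higher and 17 lower than in cDC2, where 19.6% of all genes were called. The list's median log2 fold change was 0.32, -0.15 and -0.46 for mcDC over cDC1, mcDC over cDC2 and cDC1 over cDC2. The Src family kinase gene Fgr was at 130, 117 and 115 RPKM in mcDC, 50.05, 27.1 and 33.0 in cDC1, and 174, 209 and 213 in cDC2 (1.73 ± 0.20 for mcDC over cDC1, limma adjusted p = 0.00047, and -2.44 ± 0.20 for cDC1 over cDC2, 3.5e-05). Src itself ran opposite, at means of 1.85 RPKM in mcDC, 12.8 in cDC1 and 0.542 in cDC2 (-2.29 ± 0.22 with limma adjusted p = 0.00019 for mcDC over cDC1, and 3.15 ± 0.22 with 1.6e-05 for cDC1 over cDC2). The adaptor gene Lat2 was higher in mcDC than in cDC1 (1.14 ± 0.18, limma adjusted p = 0.0029).

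Lcp2, which encodes the adaptor SLP-76, was graded like the receptors, at means of 65.8 RPKM in mcDC, 37.3 in cDC1 and 104.7 in cDC2, and was lower in mcDC than in cDC2 (-0.67 ± 0.12, limma adjusted p = 0.013, but 0.086 and 0.075 without cDC2 replicates 2 and 3). Cdc42, a small GTPase of phagocytosis and the most abundant gene of the list, did not pass in any comparison (263, 225 and 282 RPKM in mcDC, cDC1 and cDC2), although all cDC1 libraries lay below all cDC2 libraries and that difference passed without mcDC replicate 1 or 3 (limma adjusted p = 0.042 and 0.043) and with these subsets fitted alone (0.029). The kinase gene Syk was at 104, 72.1 and 49.5 RPKM in mcDC, 44.8, 35.9 and 31.3 in cDC1, and 115, 98.9 and 90.6 in cDC2, and is named after its values were seen because the ITAM acts through it.

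On the inhibitory side, 12 of 12 genes for phosphatases, their adaptors and ITIM receptors were tested. In mcDC 7 were higher and 2 lower than in cDC1, where 15.4% of all genes were called. In mcDC 1 (Dok2) was higher and 1 (Lilrb4a) lower than in cDC2, where 3.66% of all genes were called, and each of these calls was lost in 11 of 19 settings. The counts were 0 and 3 with voom, 0 and 1 under quantile normalization, and 1 and 2 under median-of-ratios scaling or without mcDC replicate 3. In cDC1 1 was higher and 6 lower than in cDC2, where 19.6% of all genes were called. The median log2 fold change of the 12 was 0.64, -0.28 and -0.62 for mcDC over cDC1, mcDC over cDC2 and cDC1 over cDC2. Siglece, an ITIM-bearing sialic acid receptor, was at 20.7, 22.0 and 22.6 RPKM in mcDC, 2.21, 1.86 and 2.79 in cDC1, and 32.3, 32.9 and 31.4 in cDC2 (2.80 ± 0.13 for mcDC over cDC1, limma adjusted p = 5e-06, and -3.35 ± 0.13 for cDC1 over cDC2, 9.4e-07). The adaptor gene Dok3 was at means of 13.7 RPKM in mcDC, 1.94 in cDC1 and 29.3 in cDC2, and the ITIM receptor gene Cd300a at 36.1, 12.3 and 59.9. Ptpn6, which encodes the phosphatase SHP-1, was at 271 ± 13.4, 125 ± 23.3 and 352 ± 23.1 RPKM in mcDC, cDC1 and cDC2 (SD, n = 3 each), and was called for mcDC over cDC1 (1.13 ± 0.14, limma adjusted p = 0.00075) and for cDC1 over cDC2 (-1.50 ± 0.14, 8.3e-05). Inpp5d, which encodes SHIP-1, the main effector of the Fcgr2b product, is named after its values were seen and was the other way round, at 108, 98.6 and 72.0 RPKM in mcDC, 142, 154 and 139 in cDC1, and 101, 98.4 and 88.9 in cDC2, with all cDC1 libraries above all others.

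**Figure D4:**
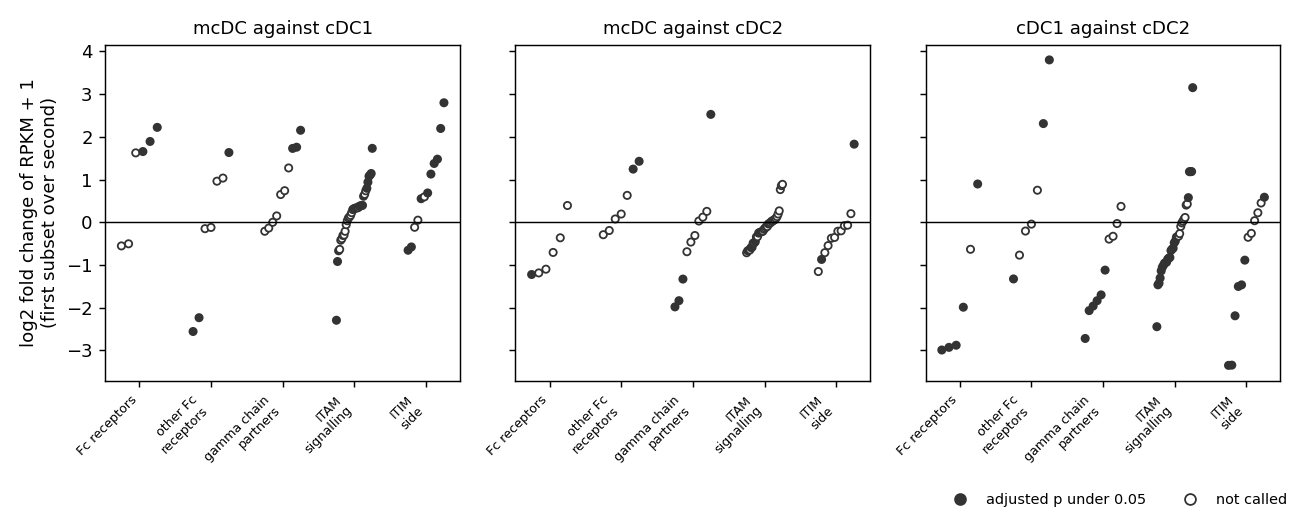
Log2 fold change of RPKM + 1 for each tested gene of the Fc receptors and of 4 related lists, in mcDC against cDC1, mcDC against cDC2 and cDC1 against cDC2; filled points passed limma adjusted p 0.05. In the right panel most ITAM signalling genes and most of the ITIM side lie below 0. Called were 17 of 34 lower and 5 higher in the first list, and 6 of 12 lower and 1 higher in the second. Of all genes 10.7% were called lower and 8.85% higher.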

How the data were processed

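The authors deposited RPKM values per gene in 1 table of 9 libraries and in 8 single-library files, which held the same values. mcDC replicate 3 is in the table alone. No header names the unit; it was inferred from the steps between values: whole reads were recovered for 100% of nonzero values (tolerance 0.01 of a read). The genome build is mm8, per the submitters' processing notes, while the aligner, counter and annotation are not given in the sources used here. The table held 0 columns of other samples.

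Differences were tested with limma 3.58.1 (R 4.3.3) using the deposited RPKM as log2(RPKM + 1). All 3 subsets shared 1 trended fit, and a gene entered when at least 2 libraries exceeded 1 RPKM, which left 11971. Benjamini-Hochberg adjustment ran over all of these within a comparison (threshold 0.05). The pseudocount makes low genes' fold changes too small. The fit had 6 residual degrees of freedom. Alternatives were another pseudocount, 2 scalings, 2 filters, no trend, pairs of subsets fitted alone, a replicate block, voom on recovered reads and leaving out each library. One further alternative, the block without mcDC replicate 3, was added after seeing the data.

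The 6 genes and all lists were chosen with earlier results of these data known. Named genes were, per list and comparison, up to 3 called genes with the largest change and the most abundant gene not called, beside the 6 receptors, B2m and Tyrobp. For each receptor 3 genes of like pattern are given. Of all gene numbers, 14847 were found in the reference gene table. Tables were handled in Python 3.11.15 with pandas 2.3.3.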

Additional observations from a re-analysis of the deposited data

How the results depend on the processing

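Over 19 other settings, the number of the 6 receptors called between mcDC and cDC1 (3) ranged from 2 to 4 with 1 library left out, was 5 with the replicate block, and was 6 with the block and without mcDC replicate 3. Between mcDC and cDC2 (1) it was 0 with a pseudocount of 0.1, without a filter, without a trend and with the 2 subsets fitted alone, 2 with voom on recovered reads, 3 with either block fit, and 0 to 2 with 1 library left out. Between cDC1 and cDC2 (5) it was 3 to 5 with 1 library left out, 4 with voom and 6 with either block fit. Values that changed sign were all uncalled: B2m for mcDC over cDC1 was 0.23 with quantile normalization and -0.064 to 0.054 with 1 library left out (0.032 without cDC1 replicate 3). With 1 library left out, Fcgr1 for mcDC over cDC2 was -1.0004 to 0.048 (above 0 without cDC2 replicate 3), Fcrl1 for mcDC over cDC2 was -0.62 to 0.097 (above 0 without mcDC replicate 3) and Trim21 for cDC1 over cDC2 was -0.11 to 0.023 (above 0 without cDC1 replicate 3). The cause was not tested. Over all genes, calls between mcDC and cDC1 (1845) were 1096 with these fitted alone, 951 to 2601 with 1 library left out and 3003 with the block and without mcDC replicate 3. Between mcDC and cDC2 (438) they were 251, 158 to 896 and 718, and 773 with the block alone. Between cDC1 and cDC2 (2344) they were 3731, 1547 to 3467 and 4274.

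The replicate block took as a run the libraries with consecutive titles, 1 from every subset, with nothing in the labels on what they have in common. Deviations from subset means correlated at 0.071 to 0.55 over the 9 pairs of 1 run and at -0.55 to 0.014 over the other 18 pairs, and 9 of 9 libraries correlated best with their own run, which is a hint from the data, not the design. Deviations within a subset cancel at every gene, so positive values within runs make those of the other pairs negative on balance. These values are therefore not separate hints. With the block Fcgr2b was called in all 3 comparisons (limma adjusted p = 0.035, 0.0047 and 0.017 for mcDC against cDC1, mcDC against cDC2 and cDC1 against cDC2), Fcgr1 for mcDC against cDC1 (0.018, and 0.043 also without mcDC replicate 3) and Fcgr4 for mcDC against cDC2 (0.013 and 0.018). Depth was lowest in mcDC replicate 3, where a single read per kb equalled 0.195 RPKM, and the lowest receptor counts were the 15 to 21 reads of Fcgr1 in cDC1.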
